A study of Mus musculus with 6 samples.

Results

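The genes described here are those whose array symbol begins with Slc1a, Slc3a, Slc6a, Slc7a, Slc36a, Slc38a or Slc43a followed by a digit, without Slc1a2 and Slc38a4. By this rule 56 of 19057 named genes were members, read by 114 of 45281 probes. Most encode carriers that move amino acids across membranes. The rule goes by name, so in the Slc6a family it also takes in carriers of neurotransmitters, betaine, taurine and creatine, and it takes in Slc7a6os, which is named for its place on the strand opposite Slc7a6 and is no carrier. Slc7a5, the light chain of the large neutral amino acid carrier LAT1, and Slc3a1 were not analysed here, since no probe in the annotation used carries either symbol.

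The arrays were Illumina bead arrays, on which the brightness of a probe reads the abundance of its transcript. They compared liver tumours of C57BL/6J mice with the liver beside each tumour. Each animal had been given the adeno-associated virus (AAV) vector AAV-Rian-CMV, at 3e+10 particles, through the superficial temporal vein on day 1 after birth, and tissue was taken at 6 months of age and frozen. The 6 arrays hold 3 tumours and 3 adjacent livers, 1 of each from animals 1293, 1309 and 1316 by the sample titles; a second label field gives another animal number for the tumour titled 1316. Adjacent liver came from the same vector-treated animals, and no liver of an animal without vector was among the arrays. The number of arrays, 3 in each group, limits the precision of every value. The arrays had median raw signals of 138.4 to 160.5, with 29.2% to 31.7% of probes above the background level of their array.

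Many of the Slc7a proteins are light chains that reach the cell surface only when joined to a heavy chain, Slc3a1 or Slc3a2, whereas the cationic Slc7a carriers and the Slc1a, Slc6a, Slc36a, Slc38a and Slc43a proteins work without one. In liver these carriers feed protein synthesis, the urea cycle, glutamine exchange and glutathione synthesis. ATF4, the transcription factor that cells translate more of when amino acids are short or the endoplasmic reticulum is stressed, is known to raise transcription of Slc7a11, Slc7a5 and Slc3a2 through sites called CEBP-ATF response elements. Slc7a11 is also a known target of NRF2, which binds antioxidant response elements.

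Promoter windows of 300 bases around the transcription start were taken from RefSeq (GRCm38.p6) for 40 of the 56 genes. The members Slc6a8 and Slc7a2 had none in the set used, and nor had Slc7a5, which is not among the 56. The CEBP-ATF response element was searched as TGATGNAA on both strands. It was found in 4 of the 40 genes (10%), Slc7a11, Slc1a4, Slc7a7 and Slc6a21, and in 4.51% of the 27025 genes with a window. The windows of Slc7a11 and Slc1a4 are shown because these were the carrier genes with the largest log2 fold changes in the tumours. Each reads 5′ to 3′ on the gene's own strand, and capitals mark the matches, TGATGNAA or its reverse complement.
Slc7a11, chr3:50443564-50443863, minus strand: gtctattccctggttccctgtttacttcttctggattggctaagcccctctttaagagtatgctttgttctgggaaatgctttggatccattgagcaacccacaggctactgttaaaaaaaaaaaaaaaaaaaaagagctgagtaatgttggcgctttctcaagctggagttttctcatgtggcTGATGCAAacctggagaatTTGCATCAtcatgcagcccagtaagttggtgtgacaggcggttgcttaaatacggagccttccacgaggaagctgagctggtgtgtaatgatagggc
Slc1a4, chr11:20332664-20332963, minus strand: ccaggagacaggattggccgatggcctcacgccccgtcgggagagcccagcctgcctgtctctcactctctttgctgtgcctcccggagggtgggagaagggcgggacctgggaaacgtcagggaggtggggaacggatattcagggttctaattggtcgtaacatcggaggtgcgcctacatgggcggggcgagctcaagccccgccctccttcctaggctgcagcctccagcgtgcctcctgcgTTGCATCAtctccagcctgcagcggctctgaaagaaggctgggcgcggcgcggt
Slc7a11 held 2 matches, 1 on each strand, and Slc1a4 held 1, on the opposite strand, which lies over the start site. The window of Slc3a2 held 0. The core of the antioxidant response element, searched as TGACNNNGC on both strands, was in 8 of the 40 genes (20%) and in 14% of all genes. Those 8 were Slc36a1, Slc38a2, Slc43a1, Slc6a11, Slc6a13, Slc6a9, Slc7a1 and Slc7a6, so the window shown for Slc7a11 held none. No member held both motifs. A match is a run of letters and does not show that a factor binds there.

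The comparison asked which carrier genes differed between tumours and the liver beside them. Of the 56 genes, 6 rose in the tumours and 0 fell at an adjusted p under 0.05 (limma, adjusted over all probes). The 6 were Slc7a11, Slc3a2, Slc7a2, Slc43a1, Slc1a4 and Slc6a8, or 10.7% of the members. Over all 19057 genes, 3.64% were called higher and 1.56% were called lower. At an unadjusted p under 0.05 in limma, 8 carrier genes were higher (the 6, Slc6a19 and Slc7a3) and 4 were lower (Slc6a9, Slc6a11, Slc6a13 and Slc6a18). These 12 were 21.4% of the members, near the 19.1% of all genes (3644) under that p. With the animal as a block in limma, 1 was called lower. The median log2 fold change was -0.01 over the members and -0.01 over all genes, with members between -1.18 and 2.05.

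Many of the carriers were too dim to be read. For 32 of the 56 genes, with 62 probes, no probe stood above background on any array. The brightest probe stood above background on 3 or more arrays for 18 genes, and the 6 called genes were among these. That count pools both groups, so a rise in the tumours alone can meet it. Slc7a11 met it through the 3 tumours only, and Slc1a4 and Slc3a2 through the 3 tumours and 1 adjacent liver. All 3 tumours lay above all 3 adjacent livers for 8 members (14.3%), against 11.6% of all genes; these were the 6 called genes, Slc6a19 and Slc1a5. All 3 lay below for 6 members (10.7%), against 11% of all genes, and of these 6 only Slc6a13 stood above background on any array. Arrays read bulk tissue, in which fewer cells of a type and less RNA per cell cannot be told apart.

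**Figure D1:**
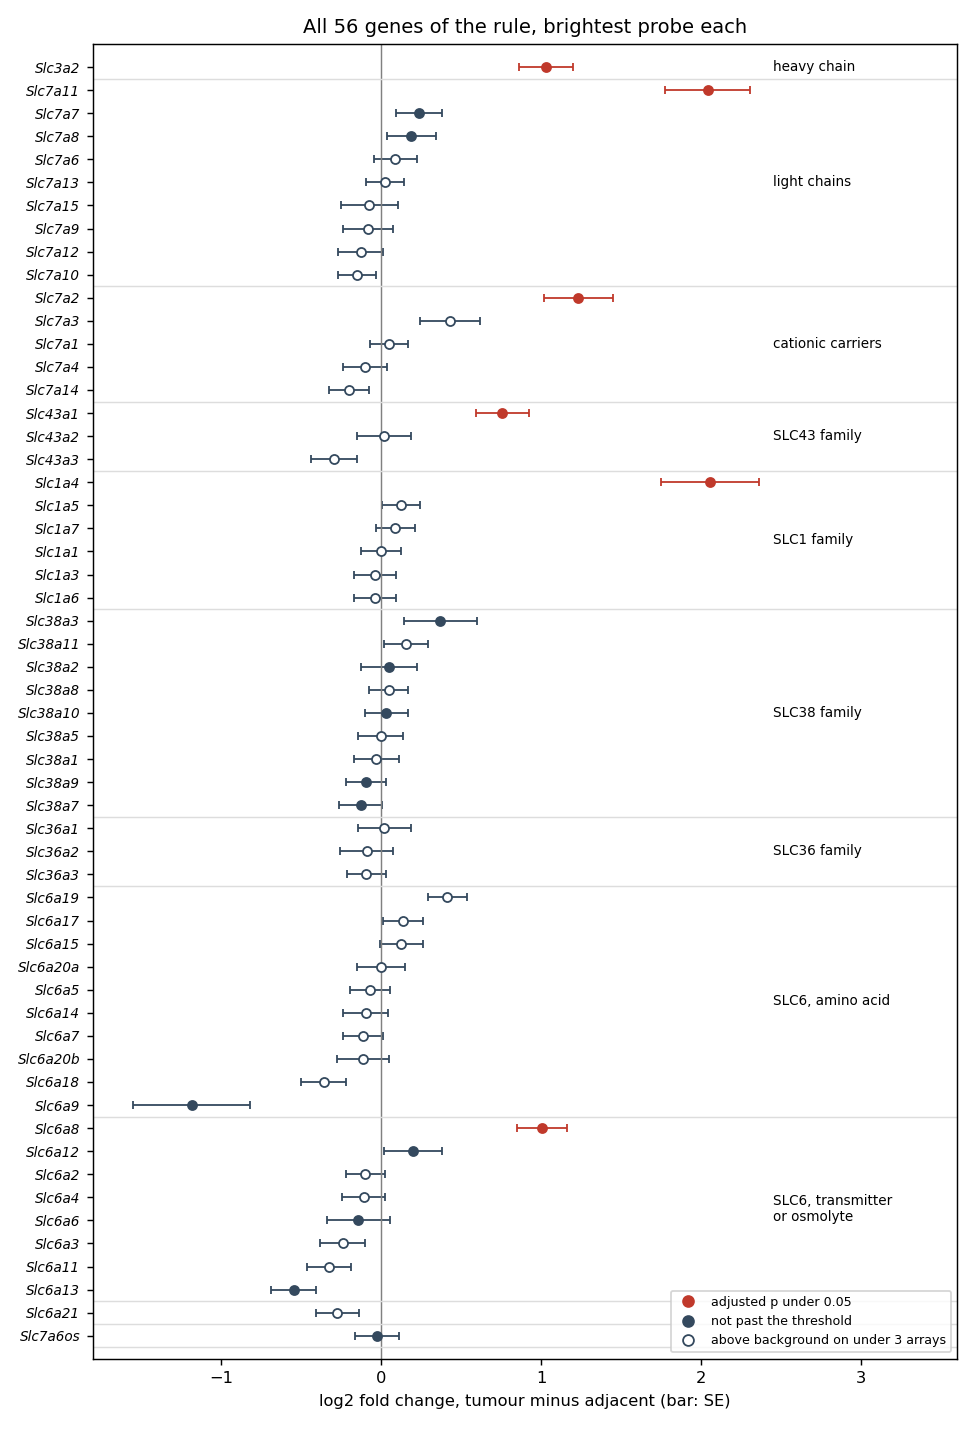
Log2 fold change of each of the 56 genes, tumour minus adjacent, from its brightest probe, with the SE as a bar and genes grouped by role. Red points passed an adjusted p of 0.05 (limma) and all 6 lie right of 0; open points were above background on under 3 arrays.

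Slc7a11 and Slc3a2, which encode the light and heavy chain of the cystine and glutamate exchanger xCT, were both higher in the tumours. Slc7a11 read 6.32, 6.26 and 6.27 in the adjacent livers of animals 1293, 1309 and 1316, and 7.86, 7.95 and 9.15 in their tumours (log2 signal). The groups did not overlap, the adjacent livers were nearly level, and the tumour of 1316 was the highest. The means were 6.28 ± 0.03 and 8.32 ± 0.72 (SD, n = 3), a log2 difference of 2.04 (SE 0.27, adjusted p = 0.0011, limma). No adjacent array stood above background for this probe and all 3 tumour arrays did, so the difference is given as at least 2.60-fold. The offset added to all signals makes a fitted fold change near background smaller than the true one. In raw signal the same probe read 139.6, 144.5 and 147.0 beside the tumours and 276.8, 329.1 and 741.7 in them.

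Slc7a11 has 5 probes, and the rise rests on the brightest by the mean over all 6 arrays, tumours included. In adjacent liver alone that probe averaged 6.28, dimmer than another at 6.60. A second probe was above background on the 3 tumour arrays only, with a log2 difference of 0.62 (SE 0.17, adjusted p = 0.0779, limma; at least 1.21-fold). It passed with the animal as a fixed block (adjusted p = 0.0372) and not with a random block (0.0606). The remaining 3 were below background everywhere, at -0.10, 0.01 and 0.22. With all 5 averaged the log2 fold change was 0.56 and the call was lost (adjusted p = 0.0631).

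Slc3a2, the heavy chain also known as CD98, is read by 1 probe. It gave 6.71, 6.76 and 6.99 in adjacent liver and 7.69, 7.64 and 8.23 in tumours (log2 signal). Every tumour lay above every adjacent liver, and 1 of 3 adjacent arrays was above background against 3 of 3 tumour arrays. The mean rose from 6.82 ± 0.15 to 7.85 ± 0.33 (SD, n = 3), a log2 difference of 1.03 (SE 0.17, adjusted p = 0.0047, limma). Within animals the tumour exceeded its own adjacent liver by 0.97, 0.88 and 1.24. Slc3a2 passed the threshold in each of the 16 alternative settings tried, with log2 fold changes of 0.74 to 1.32.

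Of the 9 light chains measured, 1 rose, Slc7a11, and 0 fell in limma. Slc7a7, which exports arginine and lysine in exchange for neutral amino acids, had a log2 difference of 0.24 (SE 0.14, adjusted p = 0.532). Slc7a8, the neutral amino acid carrier LAT2, had 0.19 (SE 0.15, adjusted p = 0.685). Neither difference passed the test. Slc7a6, Slc7a9, Slc7a10, Slc7a12, Slc7a13 and Slc7a15 were below background with every probe on every array. For the partner of Slc3a2 in LAT1, Slc7a5, no value can be given.

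Slc7a2, a carrier of arginine, lysine and ornithine that hepatocytes express, was the one of 5 cationic carriers that rose. It read 9.52, 10.12 and 9.63 in adjacent liver and 10.87, 10.61 and 11.49 in tumours (log2 signal). Each tumour exceeded every adjacent liver, with the smallest gain, 0.49, in animal 1309 and gains of 1.35 and 1.85 in animals 1293 and 1316. The mean rose from 9.76 ± 0.32 to 10.99 ± 0.45 (SD, n = 3), a log2 difference of 1.23 (SE 0.22, adjusted p = 0.00813, limma). The 3 of its 5 probes that stood above background all passed, the other pair of them at 1.25 (SE 0.21) and 0.88 (SE 0.16). Without both arrays of animal 1316 the log2 fold change was 0.92 and did not pass (adjusted p = 0.0615). Slc7a1 and Slc7a14 were below background throughout, and Slc7a3 and Slc7a4 stood above it on 1 or 2 arrays with their brightest probe, so no fold was read from them.

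Slc43a1, the carrier LAT3 for leucine and other branched-chain amino acids, was higher by a smaller amount. Adjacent livers read 7.99, 7.90 and 7.57 and tumours 8.47, 8.37 and 8.90 (log2 signal). The groups did not overlap, and the gain within animals was 0.48, 0.46 and 1.33. The mean rose from 7.82 ± 0.22 to 8.58 ± 0.28 (SD, n = 3), a log2 difference of 0.76 (SE 0.17, adjusted p = 0.0276, limma). This call was the least stable of the 6, passing in 7 of 16 alternative settings with log2 fold changes of 0.47 to 0.93. It was lost without background correction and in the authors' log2 table (adjusted p = 0.0597), with an offset of 16 (0.0946) and with both probes averaged (0.0958). It was also lost without the tumour of 1316 (0.0933), without both arrays of that animal (0.26), and without the tumour of 1293 (0.0838) or the adjacent liver of 1309 (0.0718) or 1316 (0.121). A second probe gave 0.48 (SE 0.18, adjusted p = 0.216). Slc43a2, another carrier of neutral amino acids, and Slc43a3, a carrier of purine bases, were below background on every array.

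Slc1a4, the carrier ASCT1 for alanine, serine, cysteine and threonine, had the largest log2 fold change of the set, barely above the 2.04 of Slc7a11. Slc1a4 read 7.63, 6.38 and 6.24 in adjacent liver and 8.78, 8.46 and 9.17 in tumours (log2 signal). All tumours lay above all adjacent livers, and the adjacent liver of 1293, the only adjacent array above background, stood apart from the other two. The mean rose from 6.75 ± 0.77 to 8.80 ± 0.36 (SD, n = 3), a log2 difference of 2.05 (SE 0.31, adjusted p = 0.00289, limma). Within animals the gain was 1.14, 2.08 and 2.93. It passed in 15 of 16 alternative settings. The exception, at an adjusted p of 0.0795, was limma with an intensity trend and robust variance moderation together.

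The other 5 Slc1a genes did not rise by their brightest probe. Slc1a5, the glutamine carrier ASCT2, was below background on every array with all 5 probes, and so were the glutamate carrier genes Slc1a3 and Slc1a7. Slc1a6 was above background on 1 array. Slc1a1, a glutamate and cysteine carrier, gave 0.00 with its brightest probe, which was below background everywhere. A dimmer probe of Slc1a1 read 5.98, 6.03 and 5.84 beside the tumours and 6.36, 6.70 and 7.12 in them, a log2 difference of 0.78 (SE 0.17, adjusted p = 0.0304, limma). Only 1 tumour array rose above background for that probe, so no size is read from it.

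Slc6a8, the creatine carrier, was the one called gene that moves no amino acid used in protein. It read 7.67, 7.26 and 7.84 in adjacent liver and 8.57, 8.57 and 8.65 in tumours (log2 signal). The groups did not overlap and the 3 tumours were nearly level. The mean rose from 7.59 ± 0.30 to 8.60 ± 0.05 (SD, n = 3), a log2 difference of 1.0 (SE 0.15, adjusted p = 0.00342, limma). Slc6a8 passed in all 16 alternative settings, at 0.81 to 1.16.

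**Figure D2:**
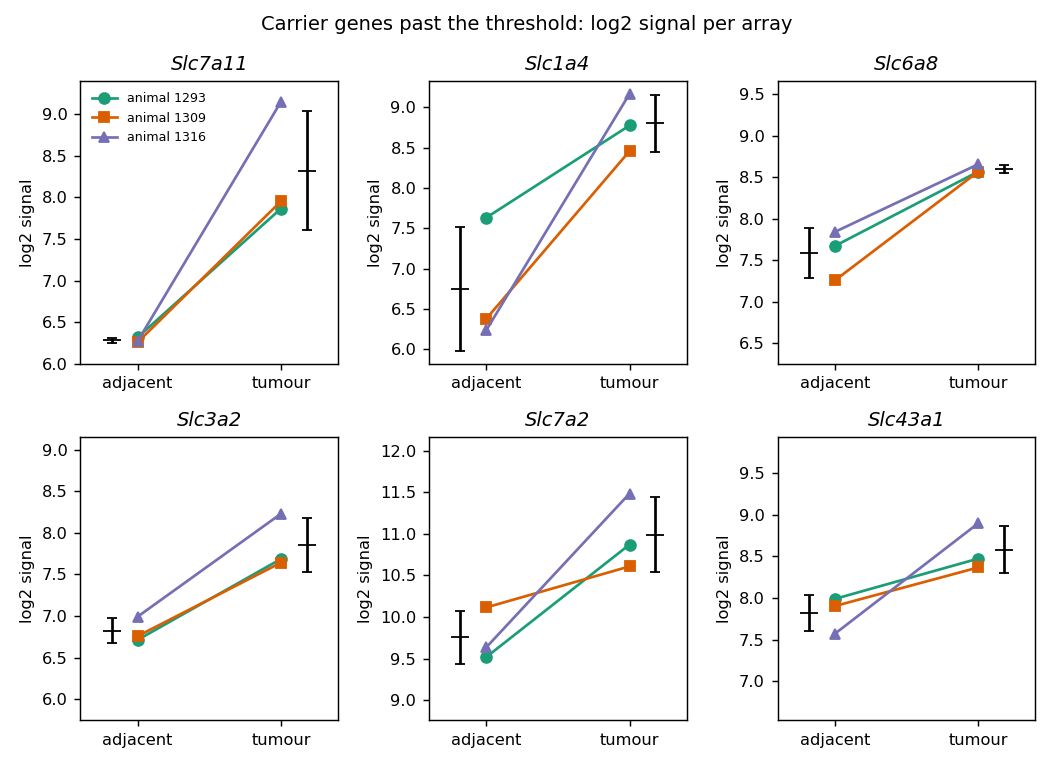
Log2 signal of the 6 called genes on each array, with a line joining adjacent liver and tumour of 1 animal and the mean ± SD (n = 3) of each group beside the points. Every line rises, the groups do not overlap in any panel, and the highest value in each panel is the tumour of animal 1316.

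Several carriers of hepatocytes were bright and did not pass the test. Slc6a13, which takes up GABA and taurine into hepatocytes, read 12.71, 12.60 and 12.70 in adjacent liver and 12.15, 12.33 and 11.88 in tumours (log2 signal). Each tumour lay below every adjacent liver, with a log2 difference of -0.54 (SE 0.14, adjusted p = 0.0578, limma). The adjusted p was 0.0523 with the animal as a fixed block, 0.0458 as a random block, and 0.0222 without the tumour of 1309.

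Slc6a9, the glycine carrier GlyT1, read 10.18, 11.10 and 11.20 in adjacent liver and 9.43, 10.61 and 8.89 in tumours. The tumour was below its own adjacent liver in each animal, by 0.75, 0.49 and 2.31, but the groups overlapped. The log2 fold change was -1.18 (SE 0.37, adjusted p = 0.121, limma). With the animal as a fixed block it passed (adjusted p = 0.0287), with a random block it did not (0.0959), and without the tumour of 1309 it was -1.67 and passed (0.00302). Its other probe, below background, gave -0.08. Of the 10 Slc6a genes for amino acid carriers 0 passed in limma without a block. Slc6a19, the neutral amino acid carrier B0AT1 of gut and kidney, was above background on 1 array, with a log2 difference of 0.41 (SE 0.12, adjusted p = 0.0991, limma). A second probe of Slc6a19, below background on every array, gave -0.06 (SE 0.15), and its groups overlapped.

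Slc6a12, which carries betaine and GABA, had a log2 difference of 0.20 (SE 0.18, adjusted p = 0.729), and Slc6a6, the taurine carrier, had -0.14 (SE 0.20, adjusted p = 0.847). Their groups overlapped. The remaining transmitter carriers, Slc6a2, Slc6a3, Slc6a4 and Slc6a11, were below background on every array. So were Slc6a5, Slc6a7, Slc6a14, Slc6a15, Slc6a17, Slc6a18, Slc6a20a, Slc6a20b and Slc6a21.

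Read from their brightest probes, 0 of the 9 Slc38a genes passed in limma, adjusted or at an unadjusted p under 0.05. This family includes the glutamine carriers called SNATs. Slc38a3, the carrier SNAT3 that takes up and releases glutamine in hepatocytes, read 11.90, 12.73 and 12.74 in adjacent liver and 12.51, 12.79 and 13.18 in tumours. All 3 tumours exceeded the liver beside them, but the groups overlapped and the log2 fold change was 0.37 (SE 0.23, adjusted p = 0.544). Slc38a2, the carrier SNAT2 that amino acid shortage is known to raise, read 10.81, 10.89 and 11.52 in adjacent liver and 11.02, 11.13 and 11.21 in tumours. It was higher in the tumours of 1293 and 1309 and lower in that of 1316, with a log2 difference of 0.05 (SE 0.18, adjusted p = 0.948) and 0.17 by a second probe above background. Slc38a7 and Slc38a9, both of the lysosome, gave -0.13 (SE 0.13) and -0.10 (SE 0.13), and Slc38a10 gave 0.03 (SE 0.14). The dimmer probes of Slc38a10, above background on 1 array at most, gave -0.18, -0.34 (SE 0.12, adjusted p = 0.191, limma) and -0.08. For the probe at -0.34 every tumour lay below every adjacent liver. A second probe of Slc38a9, above background on 2 tumour arrays only, ran the other way at 0.37 (SE 0.12, adjusted p = 0.155, limma), with every tumour above every adjacent liver.

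Slc38a1, Slc38a5, Slc38a8 and Slc38a11 were below background with every probe. Of the Slc36a genes, which encode carriers coupled to protons, Slc36a1 was above background on 1 array and Slc36a2 and Slc36a3 on 0. Slc7a6os, no carrier, had a log2 difference of -0.02 (SE 0.14).

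**Figure D3:**
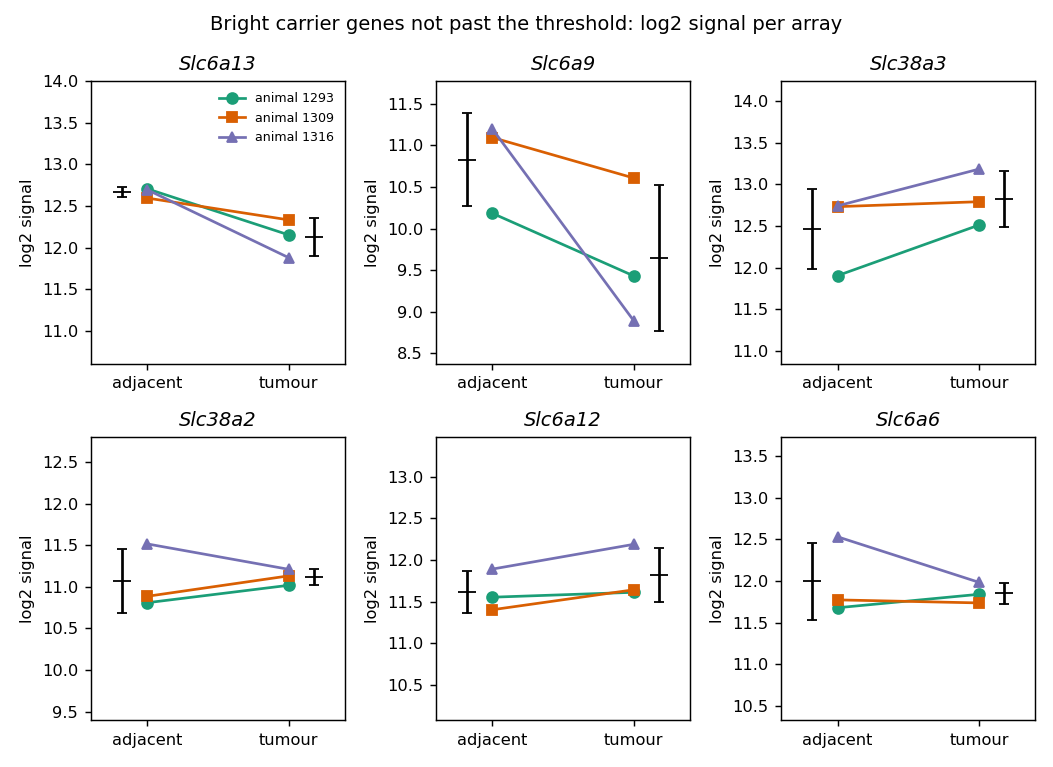
Log2 signal per array of 6 bright carrier genes that did not pass the threshold, with a line joining adjacent liver and tumour of 1 animal and the mean ± SD (n = 3) of each group beside the points. Slc6a13 and Slc6a9 fall in each animal, by 2.31 for Slc6a9 in animal 1316, while the lines of Slc38a2 and Slc6a6 run in different directions.

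Read by probe, 9 of the 114 were called higher and 0 lower in limma, where 1041 and 520 of all 45281 probes were. The 9 were the single probes of Slc3a2, Slc1a4 and Slc6a8, 3 of Slc7a2 and 1 each of Slc7a11, Slc43a1 and Slc1a1. Above background on no array were 80 of the 114, and 26 were above it on 3 or more. Brightness was the mean over all 6 arrays, tumours included, so a rise in the tumours itself makes a probe rank as brighter. By that mean the difference lay in the brighter probes of Slc7a11, Slc7a2 and Slc43a1 and in a dim probe of Slc1a1. In adjacent liver alone the called Slc7a11 probe was not the brightest of its gene.

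**Figure D4:**
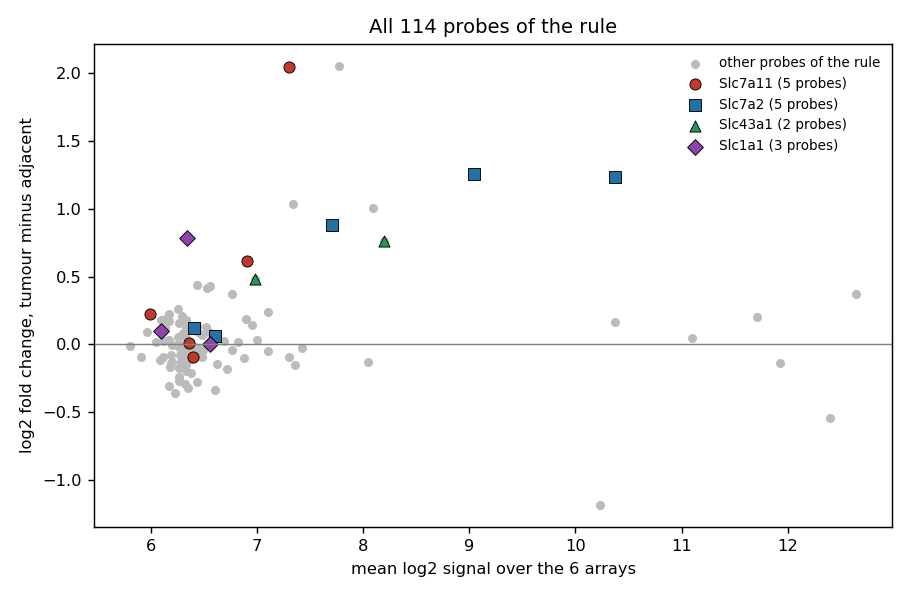
Log2 fold change of all 114 probes against their mean log2 signal over the 6 arrays, with the probes of 4 genes coloured. The brightest Slc7a11 probe lies at 2.04 while its 4 others lie between -0.10 and 0.62.

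Genes around these carriers were read from lists, which overlap each other. Of 33 measured targets and regulators of ATF4, 14 rose and 0 fell (42.4% higher, median log2 fold change 0.36), against 3.64% of all genes. Asns, asparagine synthetase, rose by 3.26 (SE 0.33), Nupr1, a stress-induced regulator, by 4.13 (SE 0.34), Ddit4, an inhibitor of mTORC1, by 2.63 (SE 0.28) and Ddit3, the transcription factor CHOP, by 2.14 (SE 0.21). Vldlr, a lipoprotein receptor, and Psat1, of serine synthesis, were at least 2.61-fold and at least 2.60-fold higher. The transcript of Atf4 itself had a log2 difference of 0.18 (SE 0.18, adjusted p = 0.754, limma), and Chac1, a glutathione-degrading target, had -0.08 (SE 0.36, adjusted p = 0.959). Over the 16 alternative settings 8 to 15 of the 33 were called higher, 8 without animal 1316.

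Cystine brought in by xCT feeds glutathione synthesis. Of 14 genes listed for glutathione and cystine use, 5 rose (35.7%, against 3.64% of all genes) and 0 fell in limma. Over the alternatives 4 to 5 were called higher and 0 lower. The 5 as reported were Srxn1, sulfiredoxin, by 2.74 (SE 0.17), Nqo1, a quinone reductase, by 2.06 (SE 0.26), Cth and Cbs, which make cysteine from methionine, by 1.73 (SE 0.23) and 1.21 (SE 0.19), and Gss, glutathione synthetase, by 0.96 (SE 0.20). The first 2 are known NRF2 targets and make no glutathione. Nfe2l2, which encodes NRF2, had 0.47 (SE 0.15, adjusted p = 0.152), and Gclc and Gclm, the subunits of the first enzyme of glutathione synthesis, had 0.10 (SE 0.17) and -0.33 (SE 0.16).

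Of 10 enzymes of glutamine, glutamate and aspartate, 3 rose (30%, against 3.64% of all genes) and 0 fell. The 3 were Asns, Ppat, of purine synthesis, by 1.21 (SE 0.15), and Gpt2, a transaminase, by 0.72 (SE 0.18). Asns and Gpt2 also count among the ATF4 targets. Over the alternatives 2 to 4 of the 10 were called higher and 0 to 1 lower. Glul, glutamine synthetase, had -0.76 (SE 0.28, adjusted p = 0.211, limma) and passed as lower with the animal as a fixed block (adjusted p = 0.0366). Gpt, another transaminase, had 0.58 (SE 0.17, adjusted p = 0.0915) and passed as higher with that block (0.0334); neither passed with a random block. Of 31 genes for amino acid sensing by mTORC1, 1 rose, Rragd, a GTPase of the sensing complex, at least 2.11-fold, and 0 fell. That is 3.23%, near the 3.64% of all genes.

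Of 21 genes for carriers of other families and their partners, 3 rose (14.3%, against 3.64% of all genes) and 0 fell. Slc16a10, which carries aromatic amino acids, rose by 1.32 (SE 0.25, adjusted p = 0.0126), Slc25a15, the ornithine carrier of mitochondria, by 0.92 (SE 0.21, adjusted p = 0.033) and Slc15a4, a histidine and peptide carrier of lysosomes, by 0.85 (SE 0.20, adjusted p = 0.0367, limma). Over the alternatives 0 to 3 of the 21 were called higher (limma). None of the 21 passed without background correction, in the authors' log2 table, without the adjacent liver of 1316 or without both arrays of animal 1316. Slc17a8, a vesicular glutamate carrier, had -1.02 (SE 0.30, adjusted p = 0.106) and passed as lower with the animal as a fixed block (0.00788) and not with a random block (0.0788).

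Markers of liver cell types were summed as normalized linear signal for each array. The hepatocyte markers, 8 measured, summed to 152289 to 161322 in adjacent liver and 139071 to 164367 in tumours, with Tat below background everywhere, Cps1 called higher and Alb called lower by its single dim probe. Of the 8, 6 had negative and 2 had positive log2 fold changes (median -0.19). Over the alternatives 0 to 1 of the 8 were called higher, and 1 was called lower in each. None was called higher with an offset of 16, with median scaling, with dim probes removed, with probes averaged or without animal 1316. The 8 markers of stellate cells and fibroblasts summed to 7288 to 8796 beside the tumours and 4218 to 6857 in them, without overlap. Of these 8, Dcn and Lum were called lower at -0.93 (SE 0.21) and -0.64 (SE 0.15), and 3 ran the other way: Acta2 at 1.17 (SE 0.38), Col3a1 at 0.51 (SE 0.13) and Col1a1 at 0.42 (SE 0.19). Acta2 passed as higher with the animal as a fixed block (adjusted p = 0.0164) and Col3a1 with a random block (0.0477). Over the alternatives 0 to 3 of the 8 were called lower and 0 to 2 were called higher. None was called lower without background correction, with an offset of 16, in the authors' log2 table or with probes averaged. The same held when any 1 adjacent liver, or both arrays of animal 1316, were left out. The 6 macrophage markers summed to 3300 to 4834 and 1069 to 3917. All 6 had negative log2 fold changes (median -0.48). In limma 0 of them were called, and over the alternatives 0 to 1 were called lower. The tumour of 1316 had the highest value of each called carrier. Of the 6 arrays it also had the lowest sum of macrophage, hepatocyte, stellate cell and fibroblast, endothelial, neutrophil and pancreas markers. Its sum of T and B cell markers was the highest, but 0 of those 7 markers stood above background on 3 or more arrays. The 7 endothelial markers summed to 6518 to 9304 and 5429 to 7144, and the 5 bile duct markers, of which Krt7, Krt19, Epcam and Cftr were below background on every array, to 803.2 to 1258 and 849.8 to 1258. The 7 T and B cell markers summed to 609.7 to 639.8 and 632.1 to 700.8, the 5 neutrophil markers to 987.5 to 2277 and 850.9 to 1516, and the 3 red cell markers to 9640 to 13574 and 9250 to 12352. Kidney (4 markers) and pancreas (4 markers) sums were 333.3 to 383.3 and 1065 to 1956 beside the tumours, and 316.6 to 370.0 and 757.6 to 1173 in them. No kidney marker stood above background on 3 or more arrays, and the pancreas markers Prss2, Cpa1 and Ctrb1 were below it on every array. With the fixed block the endothelial marker Lyve1 passed as higher (0.60, adjusted p = 0.0217) and the pancreas marker Cela1 as lower (-0.80, adjusted p = 0.0168); without it their adjusted p-values were 0.276 and 0.134. The part of these differences in the carriers' values was not tested.

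Without both arrays of animal 1316, 4 carriers passed in limma: Slc7a11, Slc3a2, Slc1a4 and Slc6a8. In each alternative setting 4 to 6 carriers were called higher, and the direction of the 6 was positive in all 16. The plot of adjusted p by setting shows Slc3a2 and Slc6a8 under the threshold throughout and Slc43a1 past and short of it by turns.

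**Figure D5:**
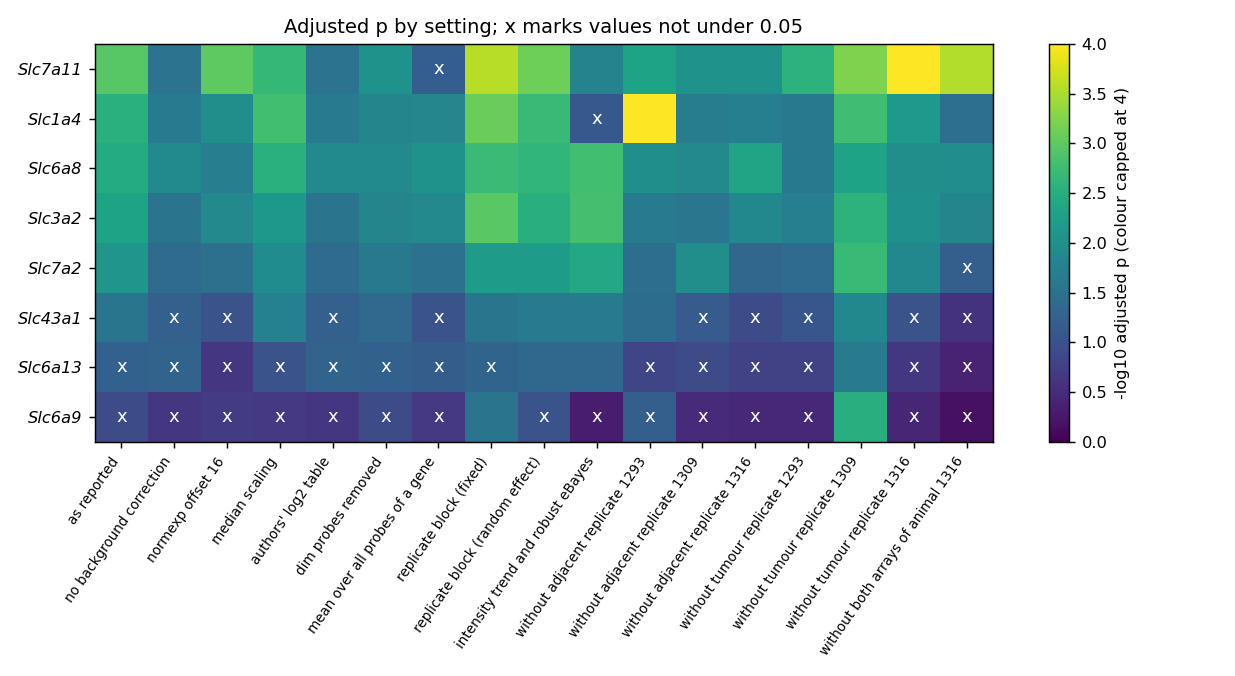
Adjusted p (limma) of the 6 called genes and of Slc6a13 and Slc6a9 (rows) in the reported fit and 16 alternative settings (columns), as the negative log10 in colour. A cross marks a value not under 0.05; Slc3a2 and Slc6a8 have none, and Slc43a1 has 9 crosses among the alternatives.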

How the data were processed

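RNA of 3 liver tumours and the liver beside each was read on 1-colour Illumina bead arrays, per the labels. The deposited intensity table holds linear signals of 45281 probes without background subtraction or normalization, as its values show. The submitters' processing notes name GenomeStudio. The authors also deposited log2 values of the same arrays. Sorted, these lie within 0.00504 of the log2 of averaged sorted intensities, which is what quantile normalization without background subtraction gives, and they served as an alternative. All arrays have a median of 7.26 in that table.

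Intensities were corrected with normexp (offset 50), quantile-normalized and put on the log2 scale in limma 3.58.1 (R 4.3.3). The 2 groups were fitted with lmFit and eBayes, two-sided, with Benjamini-Hochberg adjustment over all 45281 probes at 0.05, without a block. The p-values measure the spread between samples of these 3 animals. The background level was the mode of log2 raw signals plus 3 SDs, the SD being taken from values under the mode and their mirror image. A bound of "at least N-fold" sets the tumours' mean against a floor averaged over adjacent arrays, where each array gives its lowest signal above background or, if higher, that of the probe. A single symbol was found for 34885 probes, several for 18, and 10378 were not listed. A gene was read from the probe with the highest mean signal over all 6 arrays, tumours included.

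Named genes were all called members, Slc7a11 and Slc3a2, all members above background on at least 3 of 6 arrays, and up to 6 called genes per list. Slc6a19, Slc1a1 and genes named beyond these were picked after their values were seen. The members, lists and tests were chosen with earlier results of these data known. By the titles, tumour and adjacent liver pair by animal. Deviations from the group means correlated at 0.41, 0.25 and 0.09 within animals 1293, 1309 and 1316 and at -0.27 to 0.03 between animals, over 14026 probes, so the blocked value is given where it changes a call (statmod 1.5.0 for the random form). The test was checked on simulated data. In all, 16 alternatives were run, 15 of them planned.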

Additional observations from a re-analysis of the deposited data

How the results depend on the processing

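Of the 6 carriers called higher, 4 to 6 were called in each of the 16 alternatives, and leaving out 1 array gave 5 to 6. Carriers called lower numbered 1 with the animal as a fixed replicate block (Slc6a9) and 1 with a random block (Slc6a13). They numbered 1 (Slc6a13) with an intensity trend and robust variance moderation together. When 1 array was left out they numbered 0 to 2, with 2 without the tumour of 1309. The replicate block changed no other call of a member read from its brightest probe. Over all genes, 694 higher and 298 lower became 868 and 593 with the fixed block and 761 and 378 with the random block. Higher calls fell to 448 with an offset of 16, 452 with the mean over a gene's probes and 337 without animal 1316 (chosen after seeing the data), and ranged from 386 to 919 when 1 array was left out. Lower calls were 126 without background correction and in the authors' log2 table, 58 with an offset of 16, 130 with median scaling, 173 with dim probes removed, 104 with the mean over probes and 64 without animal 1316, and 51 to 659 when 1 array was left out. Higher calls were 70.0% of all calls as reported, 80.7% without background correction and in the authors' table, 88.5% with an offset of 16 and 85.3% with median scaling. The causes were not tested. Signal over background and the number of arrays both limit these results. No probe of 32 carriers stood above background, and a carrier that did not pass is not shown to be equal.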
